A study of Mus musculus with 11 samples.

Results

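The genes described here encode proteins that build and regulate the mitotic spindle, attach chromosomes to it at the kinetochore, and divide the cell at cytokinesis. The 38 genes were taken by symbol from the deposited table of raw counts, which holds 46983 genes, and all 38 passed the filter on low counts that left 19366 genes for testing. They were listed with earlier results of these libraries known, in which cell cycle genes stood out after injury. The library-scaled counts (CPM, read counts relative to library size) of all 4 groups were therefore part of the choice, so for injury the values of the members, and the counts of members past a test's thresholds, are a description. Comparisons between the ages are given with their adjusted p, but since the choice saw all 4 groups they are a description too. Aortic valves came from wild type mice killed 48 hours after surgery, with 1 mouse per library. In injured mice a wire was used in vivo to strip endothelium from the valve, and sham-operated mice were the controls. Young mice were 3 to 4 months old, with 3 sham and 3 injured libraries, and aging mice 16 to 18 months old, with 3 sham and 2 injured libraries. The series compared injured with sham valves at each age, and young with aging valves.

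Cells enter mitosis when kinases such as Aurora A, Aurora B and Plk1 are active, and the spindle then captures chromosomes through the kinetochore, a protein complex assembled on centromeric chromatin. The spindle checkpoint holds the anaphase-promoting complex (APC/C) inactive until every chromosome is attached, after which its coactivator Cdc20 starts the destruction of cyclin B and securin, and the midzone and contractile ring divide the cell. Most of these genes are transcribed late in the cell cycle and are nearly silent in resting cells, so their transcripts are widely used as a measure of how many cells in a tissue are cycling. The adult valve is made mainly of interstitial cells under a sheet of endothelium, and most of its cells are at rest.

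After injury in young valves, the log2 fold change was above 0 in all 38 genes and its median was 2.38 (5.20-fold), against 0.01 over all genes tested. In 35 of them every injured library was above every sham library, an arrangement seen in 9.54% of all genes tested, and in 0 of them every injured library was below (5.07% of all genes). In aging valves 37 of the 38 changes were positive, with a median of 1.75 (3.37-fold) against -0.01 over all genes, and in 30 genes both injured libraries were above all sham libraries, against 11.1% of all genes. Cenpn was the gene with both below, an order found in 16.7% of all genes. Summed over the 38 genes, the level was 136, 105 and 96.4 CPM in young sham 1, 2 and 3 and 319, 586 and 429 CPM in young injured 1, 2 and 3. In aging valves the sums were 110, 136 and 149 CPM in sham and 293 and 278 CPM in injured libraries. The injured and sham sums did not overlap at either age. In RNA from whole valves, more dividing cells and more transcript per cell cannot be told apart.

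**Figure D1:**
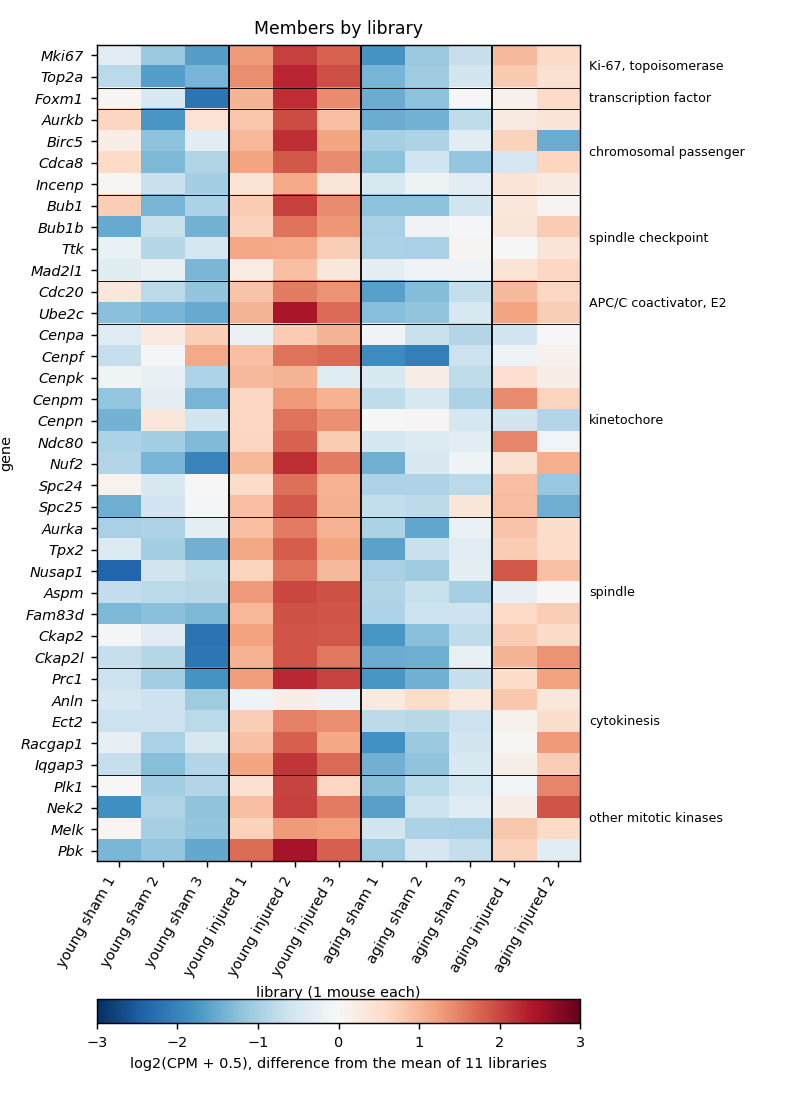
Heat map of the 38 genes (rows, grouped by role) in the 11 libraries (columns, 1 mouse each). Colour is log2(CPM + 0.5) as a difference from the mean of the gene over all libraries; young injured 1, 2 and 3 are the reddest columns, both aging injured libraries are lighter, and Cenpa and Anln differ from the other rows.

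Libraries held 27124000 to 36353474 counts. Detected genes numbered 18641 in young sham 1, 18642 in aging injured 1 and 19015 in aging injured 2, and between 20411 and 22533 elsewhere. Markers of valve interstitial cells were present in every library. The 9 fibroblast and interstitial genes summed to 16200 to 20100 CPM in young sham and 22700 to 27800 CPM in young injured libraries. In aging valves they summed to 15100 to 17600 CPM in sham and 17300 and 20800 CPM in injured libraries. Their median log2 fold change after injury was 0.35 in young and 0.10 in aging valves, and 1 passed edgeR's test in young valves. The 10 endothelial markers summed to 926 to 1330 CPM in young sham and 597 to 1260 CPM in young injured libraries. In aging valves the endothelial sums were 866 to 1480 CPM in sham and 1180 and 1210 CPM in injured libraries. The median log2 fold change of the endothelial markers after injury was -0.06 in young and 0.06 in aging valves. Cardiac muscle transcripts were also present, at 7630 to 32400 CPM summed over 10 markers. Their sums were 8510, 7630 and 32400 CPM in young injured 1, 2 and 3. The 10 macrophage and monocyte markers, all of them detected, summed to 592 to 794 CPM in young sham, 649 to 1140 in young injured, 665 to 938 in aging sham and 1020 to 1030 CPM in aging injured libraries. Young injured 2 was highest among the young libraries both for these markers and for the 38 genes. The 8 lymphocyte markers summed to 0.058 to 15.9 CPM. By Xist and the Y-linked gene Ddx3y, young sham held 2 males, young injured 1, aging sham 1 and aging injured 0. The 6 adipocyte markers summed to 132 to 265 CPM in young sham, 54.8 to 276 in young injured, 70.8 to 145 in aging sham, and 186 and 510 CPM in aging injured libraries. Their median log2 fold change after injury was 0.70 in young and 1.75 in aging valves, and 0 of them passed edgeR's test in either. With a score of the cardiac markers as a covariate, added after seeing the data, the median log2 fold change of the 38 genes was 2.36 for injury in young and 1.76 in aging valves. The median log2 fold change of the macrophage and monocyte markers after injury was 0.84 in young and 0.26 in aging valves. Of these, 1 passed edgeR's test for injury averaged over age and 0 passed at either age. The 6 smooth muscle markers summed to 6600 to 17200 CPM in young and 15400 to 22200 CPM in aging libraries. The 5 mesothelial markers summed to 13.8 to 117 CPM in young and 64.8 to 204 CPM in aging libraries. The part of interstitial cells, endothelium, immune cells, adipocytes, smooth muscle, mesothelium and sex in the results below was not tested.

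The promoters of the members share sequence features that were not used to choose them. Of the 38 genes, 32 matched the RefSeq promoter table (build GRCm38.p6, the same assembly as mm10), which gives 250 bases before to 50 bases after the annotated start. Foxm1, Spc24, Tpx2, Aurkb, Pbk and Incenp had no entry. Windows were searched on both strands for the cell cycle genes homology region (CHR), spelled TTTGAA or TTCGAA, for the CCAAT box, spelled CCAAT, and for an E2F site, spelled TTGGCGC or TTCGCGC. The CHR is the element through which the MuvB complexes, with B-Myb and FoxM1, are known to act on late cell cycle genes, and the CCAAT box binds NF-Y. An E2F match can share bases with a CCAAT match. Within 100 bases before to 50 bases after the start, 24 of the 32 members (75%) held a CHR match, against 6.69% of the 12353 tested genes with a window. A CCAAT match in the same stretch was found in 21 members (65.6%) and in 28.6% of tested genes. Both a CHR match there and a CCAAT match anywhere in the window were found in 21 members (65.6%) and in 2.78% of tested genes. An E2F match was found in 2 of the 32 members (6.25%) over the whole window, near the 7.38% of all tested genes. The windows of 7 members of different roles, picked because they hold both motifs, show how the matches lie, and the windows of Nusap1 and Nuf2 show members without them. Each runs from 100 bases before to 30 bases after the start, 5′ to 3′ on the strand of the gene, with matches of any of the 3 motifs in capitals (attgg and ttcaaa are matches on the other strand).
Top2a (chr11:99024160-99024289, minus strand): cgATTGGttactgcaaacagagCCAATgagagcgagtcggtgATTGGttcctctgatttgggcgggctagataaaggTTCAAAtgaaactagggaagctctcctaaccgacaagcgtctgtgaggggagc
Cdc20 (chr4:118437314-118437443, minus strand): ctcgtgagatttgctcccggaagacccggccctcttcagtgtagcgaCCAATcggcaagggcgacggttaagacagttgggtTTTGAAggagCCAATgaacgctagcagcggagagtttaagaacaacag
Ube2c (chr2:164769829-164769958, plus strand): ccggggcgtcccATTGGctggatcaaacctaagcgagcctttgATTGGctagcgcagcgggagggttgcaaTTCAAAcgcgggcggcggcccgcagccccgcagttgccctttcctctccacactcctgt
Bub1 (chr2:127831830-127831959, minus strand): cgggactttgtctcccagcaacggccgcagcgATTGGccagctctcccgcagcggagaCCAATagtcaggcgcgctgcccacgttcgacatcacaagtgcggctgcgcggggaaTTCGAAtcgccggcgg
Cenpa (chr5:30666786-30666915, plus strand): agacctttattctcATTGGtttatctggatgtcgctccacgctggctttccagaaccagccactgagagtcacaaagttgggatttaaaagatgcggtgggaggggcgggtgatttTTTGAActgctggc
Cenpf (chr1:189688057-189688186, minus strand): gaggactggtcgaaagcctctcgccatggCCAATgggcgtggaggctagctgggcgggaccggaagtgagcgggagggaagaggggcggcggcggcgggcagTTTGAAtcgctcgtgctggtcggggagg
Racgap1 (chr15:99651627-99651756, minus strand): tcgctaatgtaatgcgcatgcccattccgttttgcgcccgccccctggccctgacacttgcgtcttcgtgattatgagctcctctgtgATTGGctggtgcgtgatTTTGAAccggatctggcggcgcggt
Nusap1 (chr2:119618198-119618327, plus strand): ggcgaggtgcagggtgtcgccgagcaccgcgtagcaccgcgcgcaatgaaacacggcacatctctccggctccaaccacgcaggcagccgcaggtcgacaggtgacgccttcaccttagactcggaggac
Nuf2 (chr1:169531435-169531564, minus strand): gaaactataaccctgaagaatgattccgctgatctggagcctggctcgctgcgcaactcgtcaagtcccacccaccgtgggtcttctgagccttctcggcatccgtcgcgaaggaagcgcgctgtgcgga

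In all 7 windows a CHR match began between position -29 and position 16 relative to the start, which is position 0, downstream of at least 1 CCAAT match. In Cdc20 the CHR match began at position -18, between CCAAT matches at -53 and -8. In Racgap1 they were at 5 for the CHR and -12 for the CCAAT match. Top2a, the topoisomerase that untangles sister chromatids, held 4 CHR and 6 CCAAT matches over its whole window. Nusap1, Nuf2, Birc5, Mad2l1 and Melk held no match of any of the 3 motifs in their windows, and Cenpk and Nek2 held CCAAT but no CHR matches. A match is a string of letters and was not tested for binding.

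**Figure D2:**
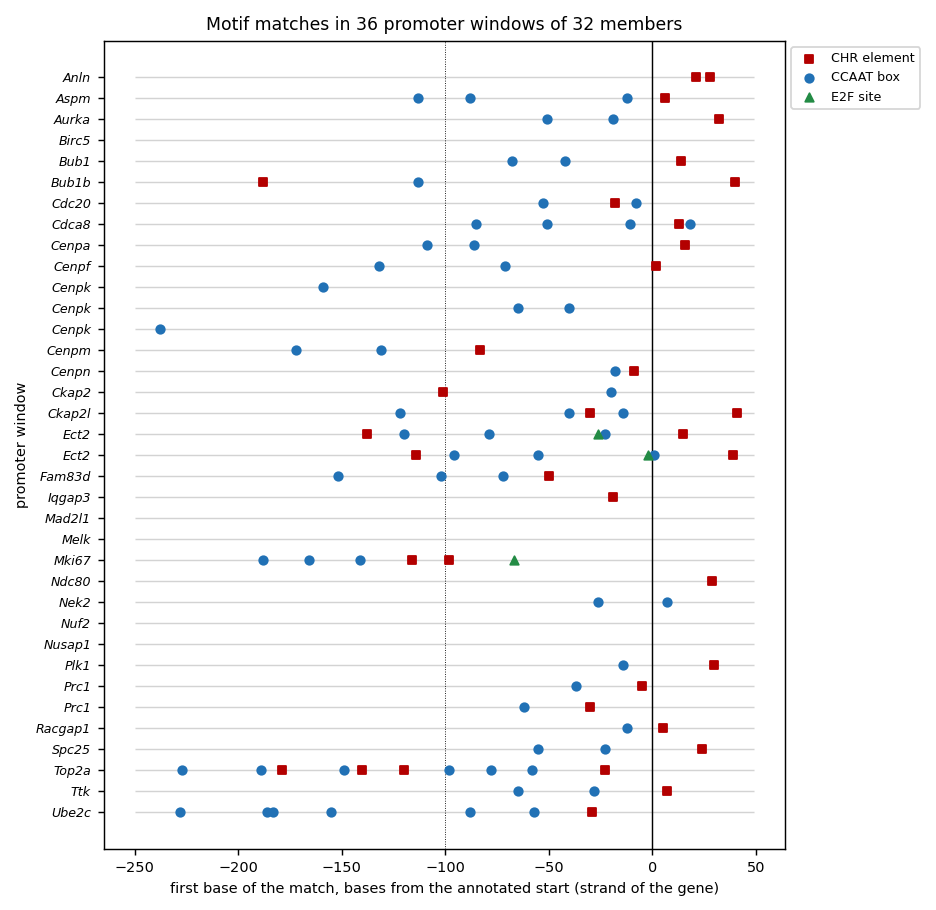
Motif matches in the 36 promoter windows of 32 members. The horizontal axis is the position of the match's leftmost base relative to the annotated start, on the strand of the gene, each row is 1 window, and the dotted line lies 100 bases before the start; red squares (CHR) crowd around the start and blue circles (CCAAT) mostly lie upstream of them.

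Tested genes outside the members were then grouped by the same motifs. A CHR match between 100 bases before and 50 bases after the start together with a CCAAT match was found for 324 of them, counted as rows of the count table, in which some gene symbols have more than 1 row. After injury in young valves 10 of the 324 (3.09%) rose and 0 fell by edgeR's test, against 0.397% rising among all 12337 tested rows outside the members whose symbol has a window. Those 10 were Ccnb2 and Ccnf, which encode cyclins, the mitotic kinesin genes Kif4, Kif18b, Kif22 and Kif23, the spindle gene Hmmr, the checkpoint gene Kntc1, the replicative helicase gene Mcm2, and Prr11. The median log2 fold change of the 324 was 0.11 against 0.01, and 16% of them were over 2-fold higher against 5.5%. In aging valves 0 of the 324 passed in edgeR, their median was 0.03 against -0.01, and 11.4% were over 2-fold higher against 4.27%. For injury averaged over age 15 of the 324 (4.63%) rose, against 0.373%.

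Mki67 and Top2a are the classical markers of cycling cells. Mki67 encodes Ki-67, which coats mitotic chromosomes (ENSMUSG00000031004, chromosome 7, 135689788 to 135716379 in mm10). It stood at 11.1, 6.23 and 4.14 CPM in the young sham and 34.9, 59.5 and 49.2 CPM in the young injured libraries, a log2 fold change of 2.74 ± 0.39 (SE; 6.67-fold). The lowest injured library was above the highest sham library. In aging valves its values were 3.73, 6.26 and 8.56 CPM in sham and 27.8 and 21.1 CPM in injured libraries, or 1.99 ± 0.41 on the log2 scale. Top2a (chromosome 11) went from 6.03, 3.10 and 3.82 CPM to 29.3, 55.1 and 43.2 CPM in young valves, and from 3.81, 4.97 and 7.29 CPM to 19.1 and 15.1 CPM in aging valves. Injured and sham values of both genes were apart at both ages. Per group, Mki67 averaged 47.9 ± 12.4 CPM after injury in young valves (SD, n = 3) against 7.15 ± 3.56 CPM in sham (n = 3), and 24.5 ± 4.79 CPM after injury in aging valves (n = 2) against 6.18 ± 2.42 CPM in sham (n = 3).

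By edgeR's quasi-likelihood test with an adjusted p under 0.1 and a change over 2-fold, the thresholds of the series' own design, 14 of the 38 genes rose after injury in young valves, where 0.403% of all genes tested rose. The 14 were Mki67, Top2a, Bub1b, Ube2c, Ndc80, Nuf2, Tpx2, Aspm, Fam83d, Ckap2l, Prc1, Ect2, Iqgap3 and Pbk, and no member fell. Since the choice of the genes used this comparison, the count is a description. Without young injured 2 it was 5 (Top2a, Ube2c, Aspm, Fam83d and Iqgap3), without young sham 2 it was 6, and without young sham 3 it was 9. DESeq2 put 29 past the same thresholds, all upward and all 14 among them, where it called 1.15% of all genes upward and 0.238% downward.

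**Figure D3:**
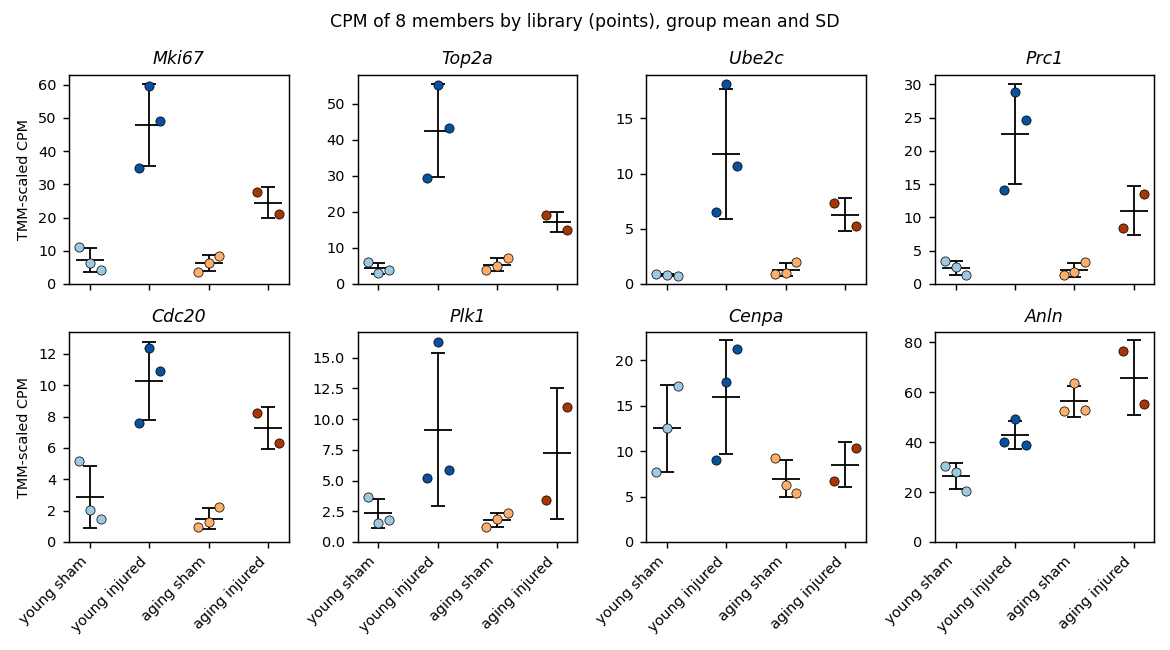
TMM-scaled CPM of 8 members in each library (points; vertical axes start at 0), with the group mean (long bar) and SD (whiskers; n = 3, and 2 for aging injured). Mki67, Top2a, Ube2c, Prc1, Cdc20 and Plk1 are higher in all injured than in all sham libraries of the same age, Cenpa overlaps between groups at each age, and Anln is higher in aging than in young sham libraries.

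Foxm1 encodes the forkhead factor that, with B-Myb, activates the late cell cycle genes. Foxm1 was at 5.86, 4.05 and 0.867 CPM in young sham and at 12.2, 28.6 and 16.3 CPM in young injured valves, and 1.71, 2.16 and 5.66 CPM against 6.32 and 8.86 CPM in aging valves. The groups did not overlap at either age, but aging sham 3, at 5.66 CPM, came close to the lower injured value. The log2 fold changes were 2.39 ± 0.63 in young and 1.26 ± 0.67 in aging valves (SE).

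The chromosomal passenger complex joins the kinase Aurora B to its scaffold Incenp and to the targeting subunits survivin (Birc5) and borealin (Cdca8), and corrects faulty attachments before it moves to the spindle midzone. Its 4 genes had log2 fold changes of 1.20 to 2.18 in young valves, and 0 of the 4 passed the thresholds. Aurkb differed between sham libraries, at 4.38, 0.43 and 3.71 CPM in young sham against 5.08, 11.6 and 5.31 CPM in young injured valves. The 2 higher sham values lay just under the lowest injured value. In aging valves Aurkb stood at 0.608, 0.679 and 1.34 CPM in sham and 3.30 and 3.60 CPM in injured libraries. Birc5 had 2.81, 0.736 and 1.77 CPM in young sham and 5.29, 12.9 and 6.04 CPM in young injured valves. The aging injured libraries disagreed for Birc5, with 4.19 CPM in aging injured 1 and 0.526 CPM in aging injured 2, the latter below every aging sham library (0.939, 1.02 and 1.80 CPM). Incenp had the highest resting level of the complex and the smallest change, from 12.9, 7.79 and 5.95 CPM to 17.0, 28.0 and 16.3 CPM in young valves, a log2 fold change of 1.20 ± 0.29. Cdca8 stood at 2.1 ± 0.67 in young and 1.55 ± 0.73 in aging valves. Cdca8 overlaps the counted gene 9930104L06Rik on the other strand, so its value is uncertain.

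The spindle checkpoint genes of the list are the kinase Bub1, the inhibitor BubR1 (Bub1b), the kinase Mps1 (Ttk) and Mad2 (Mad2l1). Bub1b was at 1.07, 2.30 and 1.18 CPM in young sham and at 6.64, 13.2 and 10.5 CPM in young injured libraries, and was the gene of the 4 that passed the thresholds (2.73 ± 0.43). In aging valves it stood at 1.77, 3.61 and 3.75 CPM in sham and 5.26 and 7.04 CPM in injured libraries, 1.02 ± 0.44 on the log2 scale. Mad2l1 had the highest sham level of the group in both ages, 5.39, 6.04 and 2.44 CPM in young and 5.66, 6.60 and 6.58 CPM in aging valves, and the smallest changes, 1.16 ± 0.33 and 0.73 ± 0.36. For Bub1, young sham 1 was at 2.64 CPM, close to the lowest injured value of 2.73 CPM, and the other young sham libraries were at 0.215 and 0.473 CPM. Ttk, with 42 counts in all young sham and 233 in all young injured libraries, stood at 2.29 ± 0.73, and overlapped between groups in aging valves.

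Cdc20 and the ubiquitin-conjugating enzyme gene Ube2c serve the APC/C. Ube2c (ENSMUSG00000001403, chromosome 2, 164769898 to 164778822) was even across young sham libraries, at 0.928, 0.798 and 0.71 CPM, and stood at 6.48, 18.1 and 10.7 CPM after injury, a log2 fold change of 3.85 ± 0.46. In aging valves it went from 0.911, 1.02 and 1.98 CPM to 7.32 and 5.26 CPM, or 2.27 ± 0.46. Cdc20 (chromosome 4, 118432901 to 118437352) had 5.13, 2.06 and 1.46 CPM in young sham and 7.56, 12.4 and 10.9 CPM in young injured libraries (1.83 ± 0.47), and 0.939, 1.30 and 2.23 CPM against 8.20 and 6.34 CPM in aging valves (2.29 ± 0.52). The estimate for Cdc20 was larger in aging than in young valves, but the interaction was 0.47 ± 0.69 on the log2 scale with an adjusted p of 0.92 by edgeR. Cdc20 overlaps Elovl1 on the other strand, and its level is uncertain because the strand setting of the counting is not stated in the labels.

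The 9 centromere and kinetochore genes had log2 fold changes from 0.35 to 4.06 in young and from -1.02 to 2.89 in aging valves. Nuf2 and Ndc80, whose products form the microtubule-binding end of the Ndc80 complex, had the largest and the next largest young change. Nuf2 was at 0.725, 0.368 and 0.0789 CPM in young sham and 3.92, 10.1 and 6.19 CPM in young injured libraries. Ndc80 was at 0.348, 0.307 and 0.158 CPM against 2.08, 5.09 and 2.29 CPM. Sham and injured values were apart for both, at 4.06 ± 0.76 and 3.51 ± 0.66 on the log2 scale, and these were the genes of the 9 that passed. The other subunits of the complex, Spc24 and Spc25, stood at 1.49 ± 0.62 and 2.84 ± 1.43 in young valves. In aging injured 2 Spc25 had 0 counts and Spc24 was at 0.526 CPM, against 2.13 and 3.73 CPM in aging injured 1.

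Cenpa encodes the histone H3 variant that marks the centromere, and it had the smallest young difference of the 38. Its levels were 7.69, 12.6 and 17.2 CPM in young sham, 8.99, 17.6 and 21.2 CPM in young injured, 9.25, 6.29 and 5.34 CPM in aging sham, and 6.75 and 10.3 CPM in aging injured libraries. The groups overlapped at both ages, with log2 fold changes of 0.35 ± 0.37 and 0.29 ± 0.42. Cenpf, a large protein of the outer kinetochore, varied within sham groups, at 2.12, 3.53 and 8.71 CPM in young and 0.635, 0.524 and 2.19 CPM in aging valves, and injured values were 7.37, 12.5 and 13.2 CPM and 3.34 and 4.09 CPM. Young sham 3 was above young injured 1 for Cenpf, so the young groups overlapped. Cenpm, of the inner kinetochore, was low throughout, with 22 counts over the young sham libraries and 221 over the injured ones, and 30 against 139 counts in aging valves. Cenpk overlapped between groups at both ages. Cenpn, which binds centromeric nucleosomes, and which is singled out after its values were seen, was the member with opposite signs. It was at 0.087, 1.47 and 0.552 CPM in young sham and 1.94, 4.38 and 3.55 CPM in young injured libraries. In aging valves it was at 1.08, 1.11 and 0.602 CPM in sham and 0.568 and 0.351 CPM in injured libraries. Neither pair of groups overlapped, but the interaction of -3.24 ± 1.22 on the log2 scale had an adjusted p of 0.581 by edgeR, and the aging injured value rests on 28 counts over 2 libraries.

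Among the 7 spindle genes the young log2 fold changes ran from 2.36 to 3.14, apart from Fam83d, and the aging ones from 1.07 to 2.51. Tpx2, which activates Aurora A on spindle microtubules, was at 4.50, 2.79 and 1.97 CPM in young sham and 14.4, 23.2 and 14.8 CPM in young injured libraries (2.49 ± 0.41), and at 1.71, 3.70 and 4.88 CPM against 10.8 and 9.30 CPM in aging valves (1.55 ± 0.43). Aurka itself stood at 0.667, 0.706 and 1.42 CPM against 3.81, 6.31 and 4.21 CPM in young, and 0.690, 0.278 and 1.49 CPM against 3.66 and 2.84 CPM in aging valves. Both genes of the pair were apart between sham and injured libraries at both ages. Nusap1, which bundles spindle microtubules, was lowest in young sham 1 (0.29 CPM) and highest in aging injured 1 (14.3 CPM), with 5.97, 12.2 and 7.48 CPM in young injured valves and 6.96 CPM in aging injured 2. Its changes at the 2 ages were close, 2.52 ± 0.63 and 2.43 ± 0.66. Ckap2l went from 1.86, 1.63 and 0.355 CPM to 7.35, 13.7 and 11.0 CPM in young valves and from 0.856, 0.894 and 2.76 CPM to 7.28 and 9.24 CPM in aging valves. Its relative Ckap2 stood at 2.61 ± 0.74 and 2.43 ± 0.80.

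For Fam83d, which carries casein kinase to the spindle, the 3 young sham libraries gave 1 count in all and the 3 young injured libraries 356. Its ratio was 316, with an exact 95% interval of 56.4 to 12500 that covers counting error only. The aging sham libraries gave 25 counts and the aging injured ones 95, for a ratio of 5.90 (interval 3.77 to 9.58). By library it was at 0, 0.0307 and 0 CPM in young sham, 0.166, 0.308 and 0.318 CPM in aging sham, 2.00, 4.26 and 4.15 CPM in young injured, and 1.42 and 1.61 CPM in aging injured valves. Aspm, which focuses spindle poles and was likewise singled out after its values were seen, was even in the sham libraries of both ages, at 0.637 to 0.925 CPM, and stood at 5, 8.69 and 8.05 CPM in young injured but 1.42 and 1.78 CPM in aging injured libraries. The log2 fold changes of Aspm were 3.14 ± 0.37 in young and 1.07 ± 0.39 in aging valves.

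Cytokinesis genes differed between the components of the midzone and the ring scaffold anillin. Prc1, the crosslinker of the spindle midzone (ENSMUSG00000038943, chromosome 7, 80294450 to 80316259), was at 3.42, 2.49 and 1.30 CPM in young sham and 14.2, 28.8 and 24.6 CPM in young injured libraries (3.22 ± 0.45). In aging valves Prc1 was at 1.33, 1.76 and 3.26 CPM in sham and 8.49 and 13.6 CPM in injured libraries (2.39 ± 0.47). Prc1 overlaps Rccd1 on the other strand, with the same uncertainty as for Cdc20. Iqgap3, a scaffold protein of the IQGAP family, stood at 2.89 ± 0.39 and 1.65 ± 0.40, and Ect2, an exchange factor that acts at the midzone, at 2.28 ± 0.34 and 1.36 ± 0.36. Racgap1, a subunit of centralspindlin and partner of Ect2, was at 5.48, 3.16 and 4.57 CPM against 12.4, 24.2 and 15.2 CPM in young valves. In aging valves Racgap1 was at 1.52, 2.78 and 4.35 CPM in sham, 6.78 CPM in aging injured 1 and 16.5 CPM in aging injured 2.

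Anln, which encodes anillin, had the highest CPM of the members in both sham groups and in aging injured valves, and was second to Mki67 in young injured valves. Its levels were 30.4, 28.1 and 20.5 CPM in young sham, 40.1, 49.1 and 38.8 CPM in young injured, 52.6, 63.5 and 53.0 CPM in aging sham, and 76.5 and 55.2 CPM in aging injured libraries. Every aging sham library was thus above every young sham library and also above every young injured library. The injury change was 0.70 ± 0.18 on the log2 scale in young valves, with groups apart, and 0.22 ± 0.20 in aging valves, with groups overlapping. Without Anln the summed level of the other members was 76.0 to 105 CPM in young sham, 279 to 537 in young injured, 57.9 to 95.6 in aging sham, and 217 and 223 CPM in aging injured libraries.

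The remaining kinases are Plk1, a kinase of mitotic entry and spindle assembly, Nek2, which separates centrosomes, and the mitotic kinases Melk and Pbk. Plk1 was at 3.68, 1.56 and 1.77 CPM in young sham and 5.21, 16.3 and 5.85 CPM in young injured libraries, so that young injured 2 set much of the group mean of 9.12 ± 6.23 CPM (SD, n = 3). In aging valves Plk1 was at 1.22, 1.85 and 2.37 CPM in sham, 3.44 CPM in aging injured 1 and 11.0 CPM in aging injured 2. Nek2 had 22 counts over the young sham libraries and 499 over the injured ones, and 1.56 and 6.11 CPM in aging injured 1 and 2. For Pbk the young sham libraries gave 7 counts and the young injured ones 560 (a ratio of 71.1, interval 34.3 to 178), and 35 against 75 counts in aging valves (3.33, interval 2.20 to 5.12). Melk stood at 2.16 ± 0.56 in young and 2.1 ± 0.60 in aging valves, and its groups were apart at both ages.

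**Figure D4:**
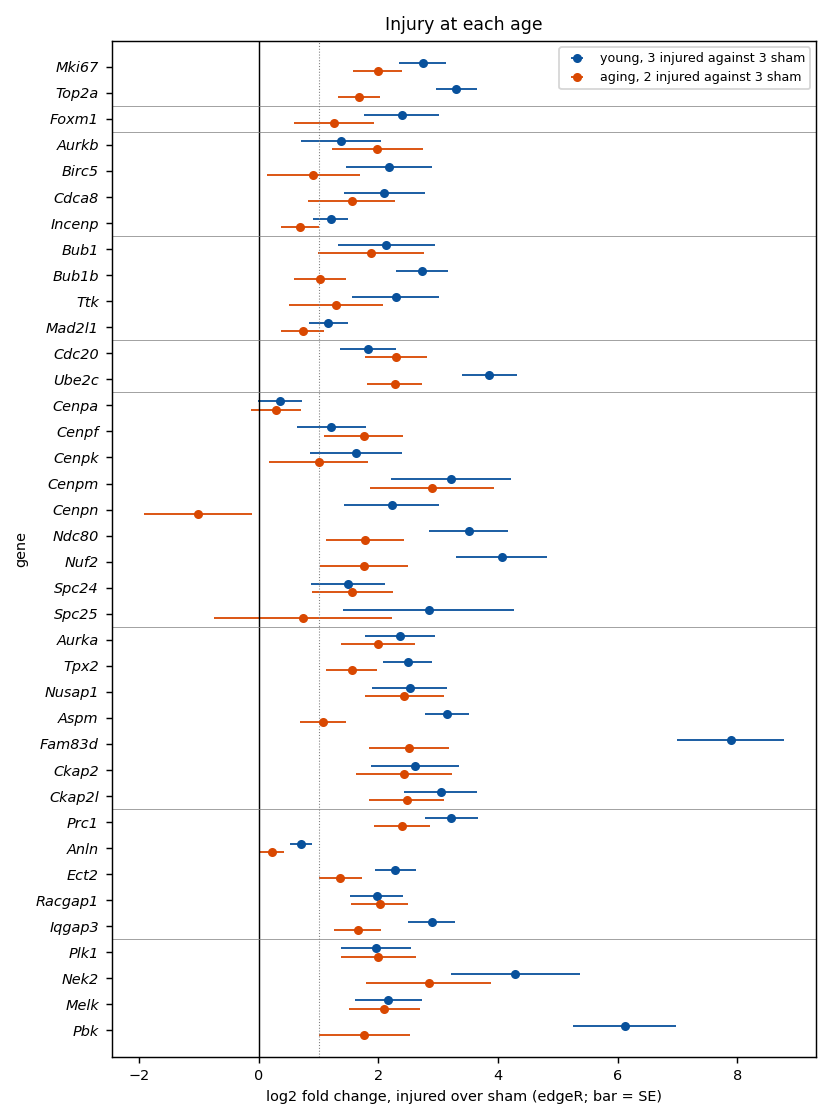
Log2 fold change of injured over sham for each of the 38 genes (points; bars are SE from the edgeR fit) in young valves (blue, 3 against 3 libraries) and aging valves (orange, 2 against 3 libraries), grouped by role. Cenpn is the gene left of 0 in aging valves, Cenpa and Anln lie nearest 0 at both ages, and Fam83d and Pbk, with 1 and 7 counts in young sham, lie furthest right in young valves.

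For injury in aging valves 0 of the 38 genes passed in edgeR's test, where 0% of the 19366 genes tested rose or fell, while an unadjusted p under 0.05 was found for 26 members and for 1710 genes in all. DESeq2 put 17 members past the thresholds, all upward, where it called 0.372% of all genes upward and 1.33% downward. They were Mki67, Top2a, Cdc20, Ube2c, Cenpm, Aurka, Tpx2, Nusap1, Fam83d, Ckap2, Ckap2l, Prc1, Ect2, Racgap1, Iqgap3, Plk1 and Melk. Without aging injured 1, edgeR called 2 members, Prc1 and Racgap1, in a fit that assumes the lone aging injured library to vary like the other groups. For injury averaged over age 22 members rose and 0 fell, where 0.434% of all genes rose and 0.16% fell, and the count was 13 without young injured 2, without aging sham 1 and without aging sham 2. In the averaged comparison the genes added to the 14 of young valves were Cdc20, Aurka, Nusap1, Ckap2, Racgap1, Plk1, Nek2 and Melk. DESeq2 put 31 members past the thresholds in it, all upward, where it called 0.981% of all genes upward and 1.09% downward.

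Young and aging valves were compared in sham valves, in injured valves and as an interaction. In sham valves 0 of 38 members passed in edgeR's test, where 0.0207% of all genes rose and 0.00516% fell. The median log2 fold change of aging over young sham was -0.06, with 18 positive and 20 negative values. The smallest adjusted p by edgeR belonged to Anln, at 1.10 ± 0.18 on the log2 scale with an adjusted p of 0.149. DESeq2 put 3 members past the thresholds there, Anln and Fam83d upward and Cenpf downward, where it called 0.568% of all genes upward and 0.465% downward. Every aging sham library was above every young sham library for Ndc80, Fam83d, Anln and Pbk (11.8% of all genes) and below for Spc24 (9.08% of all genes). In injured valves 34 of the 38 members had a negative value for aging over young mice, with a median of -0.97, and in 19 of them both aging libraries were below all young libraries, against 14.5% of all genes. Anln was the gene with both above, as in 9.89% of all genes. The counts past edgeR's thresholds were again 0, where 0.0465% of all genes rose and 0.0155% fell. By DESeq2 5 members were past the thresholds (Top2a, Cenpn, Aspm, Iqgap3 and Pbk, all lower in aging). DESeq2 called 0.857% of all genes higher and 2.24% lower there. Without aging injured 1, edgeR called Birc5, Spc24 and Aspm lower, and without young sham 1 Aspm. Aspm had the smallest adjusted p by edgeR, 0.107, at -2.17 ± 0.41, and Top2a stood at -1.31 ± 0.36 with an adjusted p of 0.201.

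The injury effects of the 2 ages were compared directly by the interaction. Its median over the members was -0.68 against -0.05 over all genes, and 32 of 38 values were negative. None of the 38 members and none of the 19366 genes (0%) passed in edgeR, and an unadjusted p under 0.05 was found for 8 members and for 1523 genes in all. DESeq2 called 3 members downward, Aspm, Fam83d and Pbk, where it called 0.124% of all genes upward and 0.775% downward. The value for Aspm was -2.07 ± 0.54 with an adjusted p of 0.446 by edgeR, and for Mki67 -0.75 ± 0.56 with an adjusted p of 0.795. Racgap1, Plk1, Melk, Nusap1, Cenpa and Spc24 had interaction values within 0.1 of 0, with SEs of 0.56 to 0.89. A difference between the ages was thus not detectable gene by gene in edgeR with these libraries. A term for the 3 libraries with the fewest detected genes, added after seeing the data, moved the interaction median to -1.80, the aging injury median to 1.18 and the median for age in injured valves to -1.36. Both aging injured libraries and young sham 1 are those 3 libraries. Since every aging injured library carries the term, it is estimated only from young sham 1 against the other young sham libraries. The moved medians for aging injured valves thus rest on that 1 library, and the term cannot be told apart from the group.

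Within the groups of 3 the members tended to be high or low together. Young injured 2 held the highest value of its group for 35 of the 38 genes, and young injured 1 the lowest for 34. In young sham valves, sham 1 was highest for 25 genes and sham 3 lowest for 19. Aging sham 3 was highest for 27 and aging sham 1 lowest for 25. In aging injured valves the order was mixed, with 20 genes higher in library 1 and 18 in library 2. Spc25 was at 2.13 CPM in library 1 and had 0 counts in library 2. Library 1 was also higher by more than 3-fold for Birc5, Spc24 and Ndc80, and library 2 for Plk1 and Nek2, while Mki67, Top2a, Tpx2 and Aspm agreed more closely.

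Levels of different genes were compared per length, on the authors' deposited RPKM values, which list 36 of the 38 genes (all but Ttk and Fam83d). In young injured valves the highest were Anln at 8.88 ± 1.27, Incenp at 7.17 ± 2.36, Cdc20 at 6.2 ± 1.44, Mki67 at 5.35 ± 1.36 and Top2a at 5.31 ± 1.59 RPKM (SD, n = 3). The spreads of neighbours in that order overlapped. Anln and Incenp were also the highest members in the other groups, at 5.28 and 3.00 RPKM in young sham, 11.6 and 3.49 in aging sham, and 13.4 and 5.51 RPKM in aging injured valves. Over the 36 genes the median was 0.413 RPKM in young sham, 2.67 in young injured, 0.394 in aging sham and 1.43 RPKM in aging injured valves, against 6.82 to 7.07 RPKM over all 13526 genes listed. The young sham and aging sham medians include genes at 0.133 RPKM, a value repeated in 61 to 318 genes of every library. Over the 19 members at that value in no library, the median was 0.677 RPKM in young sham and 3.73 in young injured valves. In aging valves it was 0.666 RPKM in sham and 1.76 RPKM in injured valves over these 19 members. Cenpa was in place 3 of the order in both sham groups and in place 15 in both injured groups.

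Other genes of mitosis and replication were read from lists set beside the members, by complex. The genes given with an adjusted p were picked for a small p in their list, so these p are a description. Of the 13 mitotic kinesin genes, motors that move chromosomes and slide spindle fibres, 5 rose in young valves and 0 fell, with a median log2 fold change of 2.95. Kif20a, needed for cytokinesis, stood at 3.14 ± 0.41 with an adjusted p of 0.0129 by edgeR, and Kif23, the motor of centralspindlin, at 2.46 ± 0.44 with an adjusted p of 0.0523. Kif20a overlaps the counted gene Cdc23. Of 33 other centromere and kinetochore genes 1 rose, Kntc1, and the median was 1.13. The highest of these in CPM, Hjurp and Zwint, averaged 100 and 57.0 CPM in young sham valves and had log2 fold changes of 0.36 ± 0.13 and -0.13 ± 0.13. Of 32 other spindle and centrosome genes 4 rose, Hmmr, Knstrn, Gtse1 and Troap, and Numa1 and Ckap5, which spindles share with interphase cells, stood at -0.19 ± 0.14 and 0.20 ± 0.14. Mastl, the Greatwall kinase of mitotic entry, was the gene of 19 that rose in the list of MuvB subunits and entry regulators, whose median was 0.14.

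Lists of the APC/C and cohesin, complexes that cells also use outside mitosis, had medians close to 0 in young valves, and those of condensin and replication genes were higher. The 17 APC/C subunit and regulator genes had a median of 0.03, with a highest value of 0.98, and 0 rose or fell, while Cdc20 and Ube2c, which work with the complex, stood at 1.83 and 3.85 in the same fit. The 15 cohesin and separase genes had a median of 0.04 and 0 passed, with Smc1a at 0.20 ± 0.18 and Esco2, the cohesin acetyltransferase of S phase, at 2.88 ± 0.85 with an adjusted p of 0.243. Condensin genes had a median of 0.79 with 0 of 8 passing. Ncaph, of condensin I, stood at 1.76 ± 0.44, while Ncaph2, of condensin II, stood at 0.00 ± 0.13. Ncaph2 overlaps the counted genes Tymp and Sco2 on the other strand. All 30 replication genes had positive values, 6 rose (Mcm2, Mcm3, Mcm5, Mcm7, Lig1 and Uhrf1) and the median was 0.97. In aging valves 0 genes of any of these lists passed in edgeR, and the medians were 1.20 for kinesins, 0.34 for other kinetochore genes, 0.54 for condensin, -0.13 for cohesin, 0.02 for the APC/C, 0.40 for other spindle genes, -0.01 for MuvB and entry genes and 0.33 for replication genes.

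**Figure D5:**
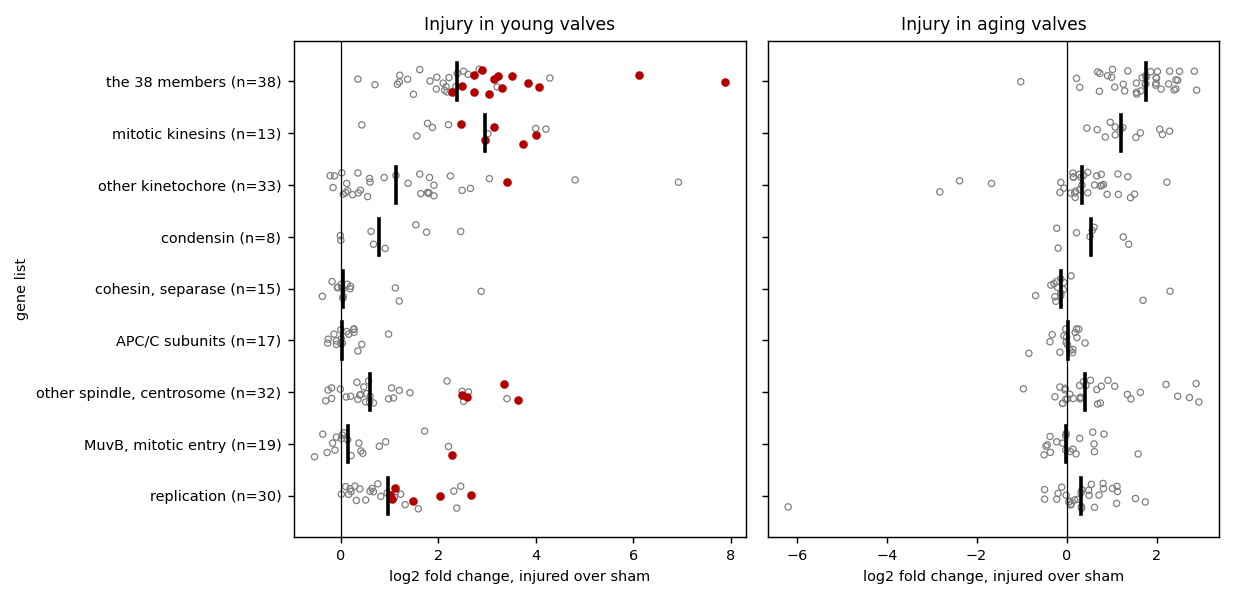
Log2 fold change of injured over sham for the 38 members and 8 lists of other mitotic and replication genes in young (left) and aging valves (right). Each point is 1 gene, filled red where edgeR's adjusted p was under 0.1 with a change over 2-fold, and black bars are medians; in young valves kinesins lie furthest right with the members, and the APC/C and cohesin lists centre on 0.

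The 10 genes outside the members whose log2 CPM over the 11 libraries was most like the mean of the members were Uhrf1, 2810417H13Rik, Ccna2, Ccnf, Knstrn, Ccnb2, Rrm2, Kif23, Tk1 and Kif20a, with Pearson correlations of 0.958 to 0.989. These correlations are across the same 11 libraries, whose 4 groups they reflect, and are a description. Among them are cyclins A2, F and B2, the nucleotide synthesis genes Rrm2 and Tk1, and Uhrf1, which maintains DNA methylation at replication. 2810417H13Rik, Ccna2, Tk1 and Kif20a overlap counted genes on the other strand, with the same uncertainty as for Cdc20. Uhrf1 averaged 3.72 CPM in young sham, 23.8 in young injured, 4.19 in aging sham and 12.1 CPM in aging injured valves.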

How the data were processed

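RNA from 11 aortic valves, 1 mouse per library, was sequenced, and the submitters' processing notes name TopHat2 2.1.0. The gene counter, its use of strand and the annotation are not stated in the labels. The authors deposited raw counts for 46983 genes and, separately, RPKM values per gene and library. The RPKM values were used as deposited, for levels only. 1 column of counts matched no sample and was not used.

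Genes were kept by edgeR's filterByExpr with a minimum count of 10, which left 19366, and scaled by TMM. edgeR 4.0.16 in R 4.3.3 fitted the 4 groups in 1 quasi-likelihood model over all 11 libraries, with Benjamini-Hochberg adjustment over all genes tested and a gene called at an adjusted p under 0.1 and a change over 2-fold. A change is given as log2 ± SE. Counts of members past the thresholds are read from this model unless another fit is named. The common biological coefficient of variation was 0.377, and libraries held 27124000 to 36353474 counts. DESeq2 1.42.0, limma 3.58.1 (voom), RLE scaling, no filter, removal of 37 mitochondrial genes, a fit of only the groups compared, a replicate block and leaving out each library were the alternatives. A term for 3 libraries with few detected genes and a cardiac marker score were added after seeing the data. The script was tested on simulated counts.

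The members, the other gene lists and the tests were chosen with earlier results of these data known. By the rule for named genes, library values were given for the 3 members of each role with the highest mean CPM, those with the largest and smallest young change, any member at 0 in a group, and Mki67, Foxm1, Cdc20, Aurkb and Plk1. Outside the members, the rule took 2 genes per list by the smallest p and 2 by CPM. Values of Cenpn, Aspm, Ndc80, Spc24, Spc25 and Cenpm were added after they were seen. Genes like the members were ranked by Pearson correlation with the mean log2 CPM of the members. Promoter sequences are from RefSeq on GRCm38.p6.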

Additional observations from a re-analysis of the deposited data

How the results depend on the processing

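Under the alternatives run, no difference past the thresholds changed its direction, but the median for age in sham valves, which was -0.06, took both signs. For injury in young valves the count of members past the thresholds was 29 with DESeq2 and 5 with only the young groups in the fit, and it ranged from 5 to 18 when 1 library was left out. The median log2 fold change ranged from 2.14 to 2.76 without 1 library and was 2.76 with the term for the 3 libraries with the fewest detected genes. For injury in aging valves the count was 17 with DESeq2 and 0 to 2 without 1 library, and the median was 1.18 with that term and 1.47 to 2.02 without 1 library. For age in sham valves the count was 3 with DESeq2, 1 without the filter on low counts (Anln) and 0 to 0 without 1 library, where the median ranged from -0.30 to 0.25. For age in injured valves the count was 5 with DESeq2 and 0 to 3 without 1 library, and the median was -1.36 with the term and -1.19 to -0.64 without 1 library. For the interaction the count was 3 with DESeq2, and the median was -1.80 with the term and -1.06 to -0.44 without 1 library. For injury averaged over age the count was 13 to 24 and the median 1.86 to 2.23 without 1 library. Fits without 1 aging injured library assume that the other varies like the remaining groups. Values with the term for few detected genes rest on young sham 1 alone, as every aging injured library carries it. Without the members at the repeated RPKM value the median was 0.677 RPKM in young sham and 0.666 in aging sham valves. Over the same members it was 3.73 RPKM in young injured and 1.76 in aging injured valves. The causes were not tested.

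Deviations of same-numbered libraries from their group means correlated at -0.131 to 0.245, highest for young sham 3 with young injured 3. With so few libraries per group, these correlations cannot decide whether replicate numbers pair the libraries. With the replicate block 12 members were past the thresholds in young valves, 11 of them among the 14, and 19 for injury averaged over age, 18 of them among the 22. It called 0 members in the other comparisons. With the cardiac marker score as a covariate 12 members were called in young valves, all among the 14.

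Aging injured valves had 2 libraries, with 28 counts of Cenpn and 60 of Spc25 in all, which limits the precision of these values. In young sham valves Fam83d, with 1 count, and Pbk, with 7, were limited in the same way.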
